A study of Mus musculus with 24 samples.

Results

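The comparison described here set yolk sacs homozygous for a catalytic dead allele of the mouse gene Setd2 against yolk sacs of the other genotypes of the same line. It compared 6 of the 24 messenger RNA libraries of the series. These were the 2 libraries labelled CD (catalytic dead) homozygous, HO, and 4 control libraries, 2 labelled wild type, WT, and 2 labelled heterozygous, HE. WT and HE were pooled because the label of WT replicate 2 is in doubt, as the transcripts given below show. All 6 were whole yolk sacs of the C57BL/6 strain at embryonic day 9.5, with the WT control carrying no labelled allele and no treatment named for any group. The other 18 libraries were CD embryos of the same genotypes and embryos and yolk sacs of a line with a Setd2-null allele. Of these, the 6 null yolk sacs (2 WT, 2 HE and 2 HO) and the 6 CD embryos (2 WT, 2 HE and 2 HO) serve below to show where the CD yolk sac differed. The null yolk sacs were also part of the fit that gave the p-values, and of its estimate of spread. The labels do not say how many animals went into a library, whether replicates were of separate litters, or whether a yolk sac and an embryo came from 1 conceptus, so each p-value reflects sample-to-sample spread only, which may be technical.

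Setd2 encodes the histone methyltransferase known for placing 3 methyl groups on lysine 36 of histone H3 along transcribed genes, a mark read by DNA methyltransferases, mismatch repair and splicing factors. The yolk sac of the midgestation mouse is a bilayer. Its outer visceral endoderm takes up maternal protein and secretes lipoproteins and serum proteins, and its inner mesoderm makes collagen-rich matrix, the vitelline vessels and the blood islands that form primitive red cells. As the primary vessel plexus is remodelled, vitelline arteries turn on genes of the Notch pathway and the gap junction proteins connexin 40 and connexin 37.

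Transcripts that follow genotype and sex were read first, as counts scaled to library size (CPM, counts per 1e+06 reads). Setd2 itself was at 178 and 190.4 CPM in the WT libraries, 170.2 and 189 in HE and 192 and 194 in HO. Its log2 difference, HO minus pooled controls, was 0.087 (SE 0.077, adjusted p = 0.519 by edgeR's quasi-likelihood test with Benjamini-Hochberg adjustment). Gene-level counts cannot read a catalytic dead allele that is still transcribed, so Setd2 does not check the labels here. Rpl29, a ribosomal protein gene on chromosome 9 (106429454 to 106431568, mm10) as Setd2 is, was at 227 and 149 CPM in WT replicates 1 and 2, 116 and 154 in HE, and 21.7 and 15.6 in HO. Gm8210, a processed pseudogene on chromosome 1, was at 0.0997 and 9.49 CPM in WT, 9.91 and 6.73 in HE, and 21.3 and 11.5 in HO. The library labelled WT replicate 2 thus stood with the HE libraries on both transcripts, and is named WT replicate 2 below by its label only. In CD embryos, Gm8210 was at 0.12 and 0.083 CPM in WT against 11.5 and 12.4 in HE. Both genes have near-identical copies elsewhere in the genome, so their counts are uncertain.

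Sex was nearly confounded with genotype. Xist, the RNA that silences an X chromosome in females, was at 16.04 and 7.66 CPM in the HO libraries and between 897 and 1532 CPM in the 4 controls. The Y-linked helicase gene Ddx3y was at 105.8 and 112 CPM in HO. Among the controls it was at 88.3 CPM in HE replicate 2, which held Xist as well, and at 0, 0.146 and 0.045 CPM in the others. Both HO libraries were thus male by transcripts, 3 controls were female and HE replicate 2 held transcripts of both sexes. Within these 6 libraries sex and genotype cannot be told apart. Sex was uneven in the CD embryos too, in the opposite direction. Over 6 sex-linked genes, most of them Y-linked, the median log2 difference, HO minus controls, was 1.93 in CD yolk sacs and -13.06 in CD embryos. Differences between the tissues given below therefore hold this difference of sex as well.

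**Figure D1:**
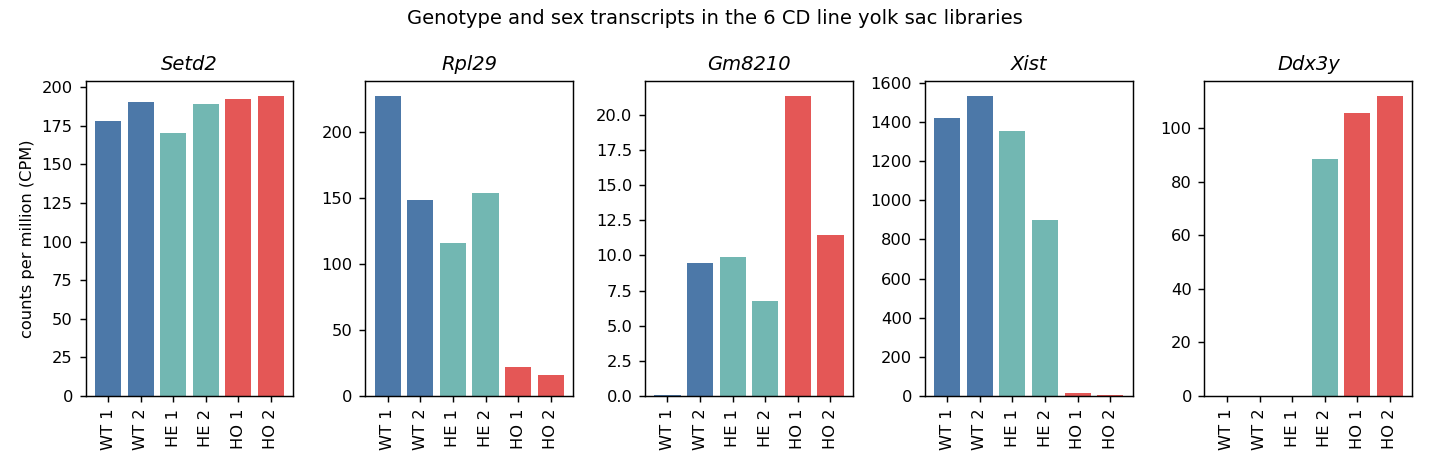
Bars give CPM (vertical axes, each from 0) of 5 transcripts in the 6 CD line yolk sac libraries, by label and replicate. Rpl29 was 21.7 and 15.6 CPM in HO, Gm8210 was 9.49 CPM in the library labelled WT replicate 2, and Ddx3y was 88.3 CPM in HE replicate 2.

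Total counts were 16400137 to 22113787 per library, and 17755 genes passed the filter on low counts. Of these, 1715 were called at an adjusted p under 0.05 (9.66%): 799 were higher in HO (4.5%) and 916 lower (5.16%). At 1 log2 unit or more, 338 rose (1.9%) and 265 fell (1.49%). These calls came from the fit of all 12 yolk sac libraries. With the 6 CD libraries alone, 271 genes were higher and 369 lower. Both HO libraries lay above all 4 controls in 15.7% of genes and below them in 15.4%. With library totals as the only scaling, the split was 1020 higher and 726 lower, and the median of all genes moved from 0.0035 to 0.048 log2 units. HO replicate 2 weighed most: without it 106 genes were higher and 222 lower, and without HO replicate 1 the counts were 927 and 1194. With a term for sex, fitted without HE replicate 2, 199 genes were higher and 318 lower. In that fit the remaining CD controls were all female and both CD HO libraries male. Its sex effect was estimated from the null line alone, so it cannot check sex within the CD line. Without WT replicate 2 and HE replicate 2, 873 genes were higher and 1034 lower. On the first principal component of the 12 yolk sac libraries (31.6% of the variance) the CD HO libraries were at 38.97 and 60.6 and the null HO libraries at 57.0 and 46.0, while every other library was at -8.58 or below.

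The genes of smallest p that fell were led by Ifi30, Clcn4, Pcdh17 and Gja5, and those that rose by Tspoap1, Abca2, Rnf157 and Cacna2d2. The 12 of each direction named by the rule kept their direction under all 16 alternatives, which included the sex term and each library left out. The rule had picked them for a small p and for HO standing apart from the controls. The sex term, as said above, cannot check sex within the CD line. Ifi30, a lysosomal thiol reductase, was at 168, 157, 163 and 148 CPM in WT 1, WT 2, HE 1 and HE 2 and at 54.0 and 44.3 in HO (log2 difference -1.69, SE 0.099, adjusted p = 1.00e-06). The 4 controls lay close together and both HO libraries were far below them. Clcn4, a chloride and proton exchanger of endosomes, was at 38.1, 38.95, 36.7 and 41.9 CPM in the controls and 7.02 and 9.33 in HO (-2.26, SE 0.14). Pcdh17, a protocadherin, a cell adhesion protein, was at 24.6, 21.96, 26.03 and 24.1 CPM in the controls and 2.74 and 2.33 in HO (-3.24, SE 0.22). Misp, an actin-bundling protein of the spindle and cell cortex, was at 5.70 to 9.92 CPM in the controls and 0.418 and 0.478 in HO (-3.97, SE 0.36).

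Further genes of this group serve lysosomes, immune signalling and adhesion. Dpp7, a lysosomal dipeptidase, fell by 1.12 log2 units. Cyba, the membrane subunit of the NADPH oxidase, fell by 1.10, Card14, a scaffold of NF-kB signalling, by 1.5, and Mxra8, an adhesion protein of the cell surface, by 2.56.

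Tspoap1, whose protein binds Rab3-interacting molecules and calcium channels, was at 3.69, 3.46, 3.11 and 3.80 CPM in the controls and 17.4 and 21.4 in HO (2.46, SE 0.19, adjusted p = 5.51e-06). Abca2, a lipid transporter of the lysosome membrane, was at 5.63 to 7.09 CPM in the controls and 20.9 and 29.1 in HO (1.96, SE 0.17). Both genes had controls within a narrow band and no overlap with HO. The ubiquitin ligase Rnf157 rose by 1.54, the calcium channel subunit Cacna2d2 by 2.99 and Apobec3, a cytidine deaminase that restricts retroviruses, by 2.03. Nrip3 rose by 2.16, Lonrf2 by 3.81, Psd3 by 1.42, Tchh by 1.71, the Golgi GTPase gene Rab6b by 1.17 and the phospholipase C gene Plcb4 by 1.07. Lonrf2 differed within HO, at 3.35 and 9.21 CPM against 0.150 to 0.617 in the controls.

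Tnfrsf8, the receptor CD30 of the tumour necrosis factor family, had no read in any of the 4 controls and was at 1.49 and 2.15 CPM in HO. Against a floor of 3 counts over the 4 controls together (0.0365 CPM), it was at least 49.9-fold higher, a bound that covers counting error only. In the other groups Abca2 differed by 2.18 in null yolk sacs and by 0.25 in CD embryos, and Psd3 by 1.46 and by -0.37.

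**Figure D2:**
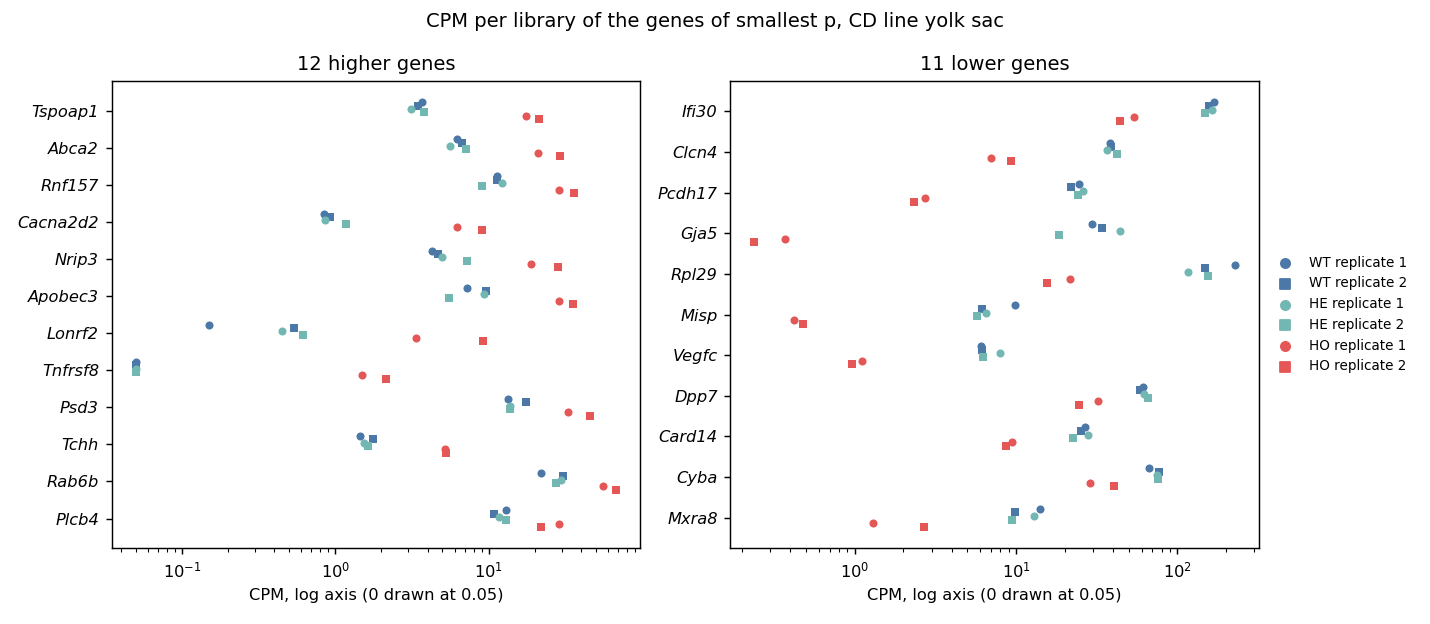
Points give CPM per library (horizontal log axes, values of 0 drawn at 0.05) for 12 higher and 11 lower genes of smallest p. Blue marks WT, teal HE and red HO, with circles for replicate 1 and squares for replicate 2. The rule that chose these genes required both HO libraries to stand apart from all 4 controls.

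Genes of arterial identity and vessel remodelling were lower. Of 27 list members tested, 10 fell (37.0%, against 5.16% of all genes) and 2 rose, and the median was -0.46 log2 units against 0.0035 over all genes. Gja5 and Gja4, which encode connexin 40 and connexin 37, fell with the vessel growth factor genes Vegfc and Vegfb, the arterial ligand gene Efnb2 and the Notch genes Hey1 and Jag1. Because the tissue was taken whole, fewer cells of a type and less RNA per cell cannot be told apart. The 300-base windows at 1 RefSeq start each of Gja5 and Gja4 are shown, as both connexins of vitelline arteries fell together. They run from 250 bases before the start to 50 after it (RefSeq, GRCm38.p6), with the GC box GGGCGG, searched on both strands, in capitals. The Gja5 window lies inside the span of the GENCODE gene given below, not at its first base, while the Gja4 start is the first base of its GENCODE gene.

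Gja5, chr3:97032152-97032451, plus strand: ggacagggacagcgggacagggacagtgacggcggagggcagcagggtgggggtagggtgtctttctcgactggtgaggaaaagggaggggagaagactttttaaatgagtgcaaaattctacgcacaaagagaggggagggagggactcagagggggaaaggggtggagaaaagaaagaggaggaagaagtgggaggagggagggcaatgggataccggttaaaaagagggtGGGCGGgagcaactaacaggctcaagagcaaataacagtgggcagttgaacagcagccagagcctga
Gja4, chr4:127313990-127314289, minus strand: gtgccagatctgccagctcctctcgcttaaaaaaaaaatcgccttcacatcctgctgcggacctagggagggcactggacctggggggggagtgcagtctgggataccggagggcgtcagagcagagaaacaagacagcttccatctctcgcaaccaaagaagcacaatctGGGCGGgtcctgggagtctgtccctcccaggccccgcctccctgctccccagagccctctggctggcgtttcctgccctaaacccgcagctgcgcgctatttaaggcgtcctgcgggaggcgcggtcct

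The GC box was in 35.7% of the 32851 RefSeq windows of this length. TGGGAA, the core bound by the Notch effector RBPJ, and AACAAT, a core of SOX factors, were searched on both strands and were in neither window. They were in 25.6% and 10.7% of all windows. The Gja5 window held 7 CpG sites and the Gja4 window 16, and the median over all windows was 7. Over the tested genes with a window the median was 20, and over those called lower 17.

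Gja5 (chromosome 3, 96904693 to 97077416) was at 29.5 and 33.9 CPM in the WT libraries, 44.2 and 18.4 in HE and 0.372 and 0.239 in HO. The log2 difference was -6.63 (SE 0.48, adjusted p = 3.04e-06), with 31.5 ± 10.7 CPM (SD, n = 4) in the controls and 0.306 ± 0.094 (SD, n = 2) in HO. In CD embryos, whose WT and HE libraries were at 8.496 to 18.4 CPM, Gja5 was at 4.98 and 5.10 in HO (-1.61), and the difference between the tissues was -5.04 (SE 0.68, adjusted p = 8.30e-05). Gja4 was at 5.33, 6.28, 9.82 and 2.67 CPM in WT 1, WT 2, HE 1 and HE 2 and at 0.558 and 1.02 in HO (-2.96, SE 0.46, adjusted p = 0.00191). HE replicate 2 was the lowest control for both connexins, and both HO libraries were below it.

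Vegfc, a growth factor of lymphatic and vascular endothelium, was at 6.08, 6.13, 7.93 and 6.27 CPM in the controls and 1.12 and 0.957 in HO (-2.66, SE 0.25). In CD embryos it differed by -0.19 (adjusted p = 0.165). Efnb2, the transmembrane ephrin of arteries, was at 24.3, 21.4, 30.8 and 26.4 CPM in the controls and 13.2 and 13.3 in HO (-0.96, SE 0.17). The Notch target Hey1 fell by 1.67 log2 units and the ligand Jag1 by 1.3, although Jag1 in HE replicate 2 was already at 3.24 CPM, beside 2.79 and 2.93 in HO. Vegfb fell by 0.96, the receptor Acvrl1 by 0.57, the chemokine Cxcl12 by 0.60 and Nr2f2, a transcription factor of veins, by 0.63. The ligand Jag2 rose by 1.30 and the vasodilator peptide Adm by 1.49. Vegfa (0.066), Dll4 (-0.46) and Notch1 (-0.31) did not pass the test.

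In null yolk sacs 12 of the 27 fell and 2 rose, where 7.59% and 7.21% of all genes did. In the CD line 4 fell with the sex term, 4 without HO replicate 2 and 11 without WT replicate 2 and HE replicate 2. Gja5 and Gja4 were called in each of these fits.

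Pan-endothelial genes were divided. The junction genes Cdh5 and Pecam1 differed by -0.054 and 0.035 log2 units and the receptor genes Tie1 and Tek by -0.20 and -0.18, none of them called. The receptor gene Kdr was at 189, 160, 209 and 172 CPM in the controls and 142 and 142 in HO (-0.36, adjusted p = 0.131). Both its HO libraries were below all 4 controls, but the difference did not pass the test. The summed level of 6 endothelial markers was 563 to 784 CPM in the controls and 644 and 632 in HO. Of 43 endothelial genes tested, 5 fell (11.6%, against 5.16% of all genes), and both HO libraries lay below all 4 controls in 13 of the 43 and above them in 3 (15.4% and 15.7% of all genes). Those that fell were the adrenomedullin and CGRP receptor Calcrl by 1.27, the diaphragm protein Plvap by 0.87, Clec14a by 0.87, Cd34 by 0.63 and the transcription factor Sox7 by 1.12. Lmo2, a regulator of blood and endothelium, rose by 0.67. The list's median was -0.20. With the sex term it was 0.096 with 2 lower and 1 higher, and without HO replicate 2 it was -0.16 with 2 lower. Without WT replicate 2 and HE replicate 2 it was -0.37 with 10 lower and 2 higher, and the replicate block gave 11 lower and 1 higher.

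Genes of the mesoderm and its matrix were lower. Of 33 tested, 9 fell (27.3%, against 5.16% of all genes) and 0 rose, with a median of -0.42. Col1a1, a chain of fibrillar type I collagen, was at 1056, 1099, 1099 and 782 CPM in WT 1, WT 2, HE 1 and HE 2 and at 357 and 453 in HO (-1.3, SE 0.21, adjusted p = 0.00199). Col3a1, the chain of type III collagen, was at 816, 770.3, 936 and 609.9 CPM in the controls and 311 and 278 in HO (-1.41, SE 0.21). HE replicate 2 was the lowest control for both, with no overlap between groups. Col1a2 fell by 0.91, Col6a1 by 1.72, Col5a1 by 0.54, fibronectin (Fn1) by 0.36, the proteoglycan decorin (Dcn) by 0.90, periostin (Postn) by 0.93 and the transcription factor Hand2 by 0.96. The summed level of 6 extraembryonic mesoderm markers was 1809 to 2486 CPM in the controls and 1005 and 914 in HO, of which the 2 collagens make up the larger part. The mesoderm factor Hand1 (-0.33) and the receptor Pdgfra overlapped between groups. Pdgfra was at 77.7 and 33.9 CPM in HO against 56.5 to 85.7 in the controls.

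Null yolk sacs had 14 of these 33 lower and 2 higher, where 7.59% and 7.21% of all genes were. In CD embryos 3 fell and 4 rose with a median of 0.13, where 13.9% and 11.9% of all genes fell and rose. These shares, here and below, are over the 19215 genes tested in embryos. The embryo counts of list members cover only genes tested in both tissues, of which 2442 of 16456 fell and 2033 rose. Col1a1 differed between CD yolk sac and CD embryo by -1.62 (SE 0.40, adjusted p = 0.0153) and Col1a2 by -1.33 (adjusted p = 0.00595). Within the yolk sac, 2 members fell with the sex term and 2 without HO replicate 2, while 14 fell without WT replicate 2 and HE replicate 2. Collagen and laminin genes of basement membranes did not share this direction. Of 18 tested, 0 fell and 2 rose (11.1%, against 4.5% of all genes), Lama1 by 0.61 and Fbln1 by 0.54.

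**Figure D3:**
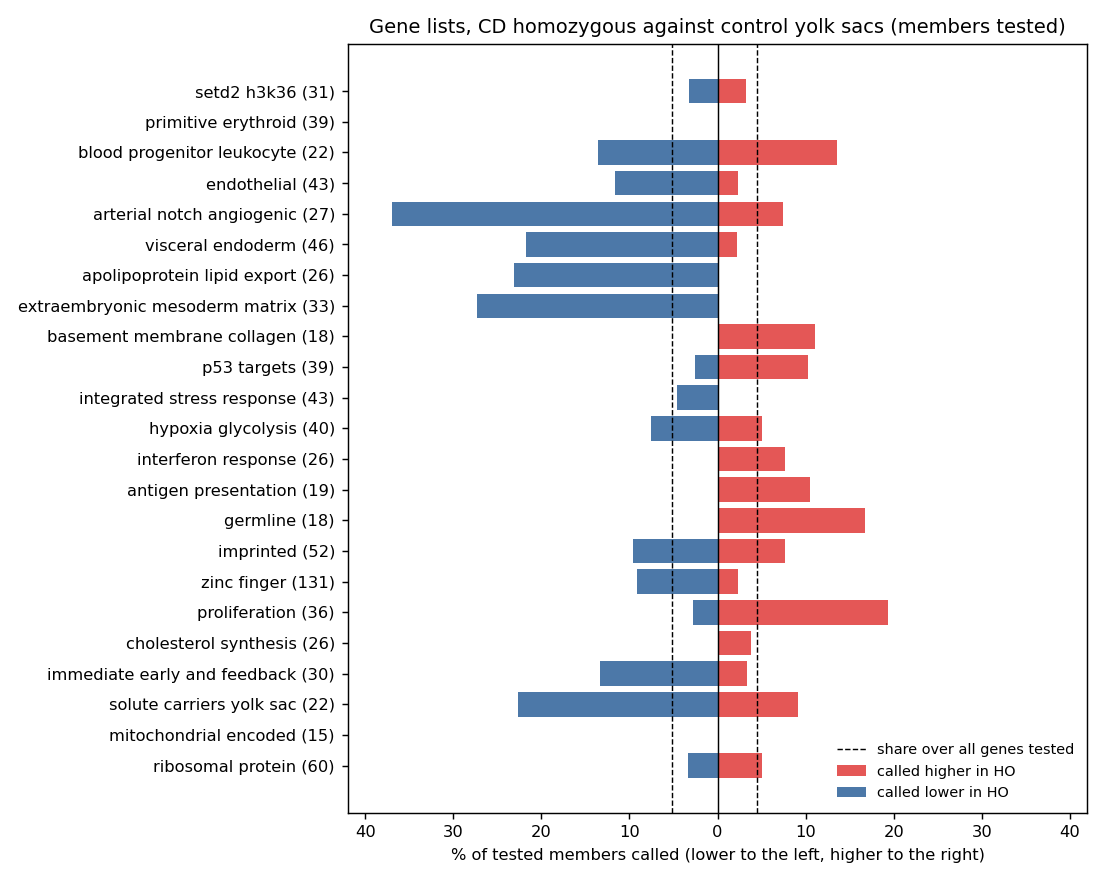
Horizontal bars give the share of tested members called higher (right, red) or lower (left, blue) in CD HO yolk sacs for 23 gene lists, with the number tested in parentheses; dashed lines give the shares over all genes, 4.5% higher and 5.16% lower. The arterial list reached 37.0% lower and the proliferation list 19.4% higher.

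**Figure D4:**
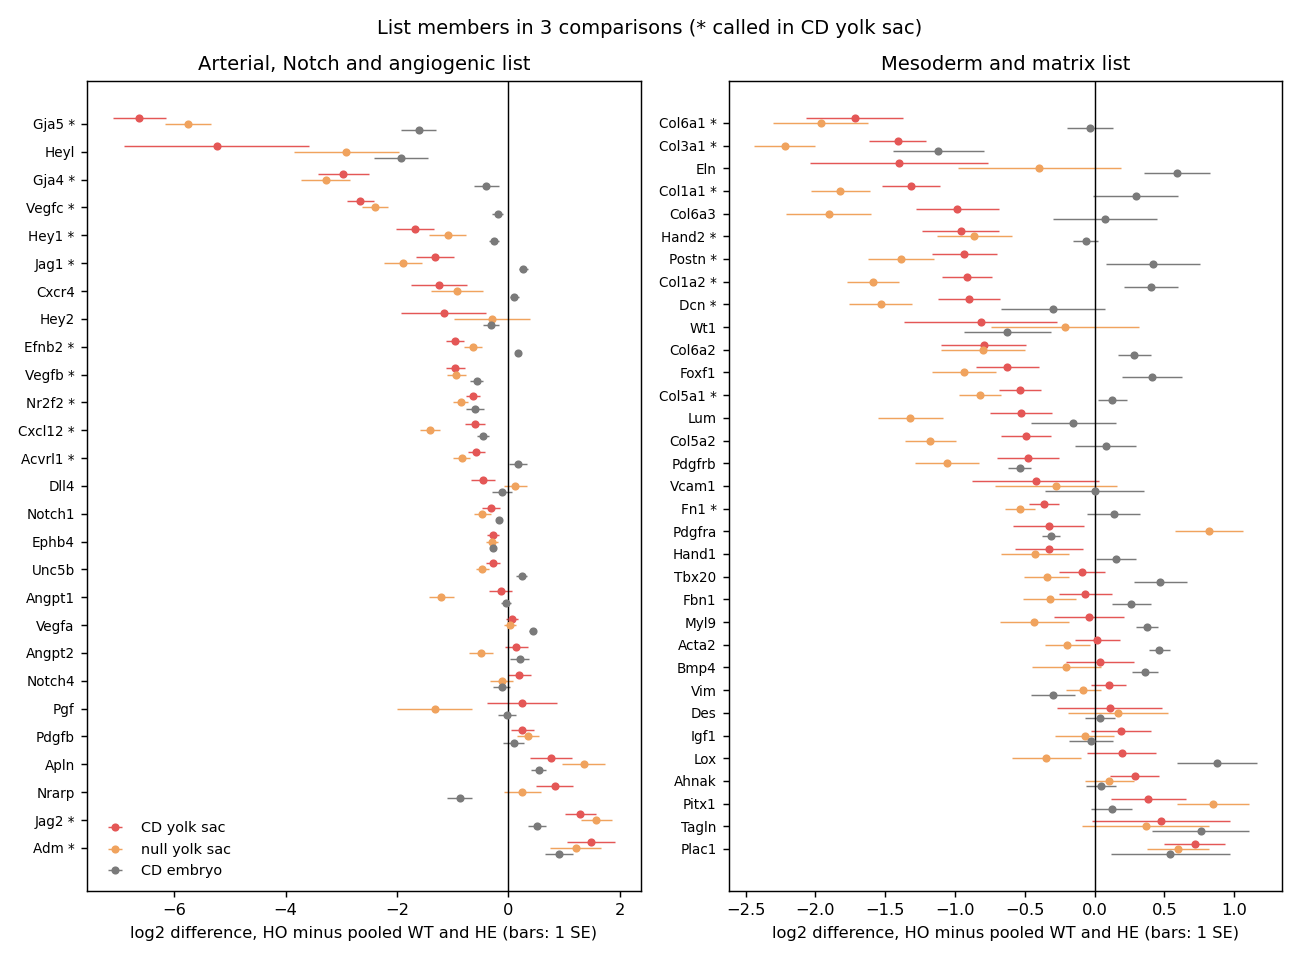
Points give the log2 difference, HO minus pooled WT and HE, of each tested member of the arterial and the mesoderm lists in CD yolk sacs, null yolk sacs and CD embryos, with bars of 1 SE. In CD yolk sacs Gja5 was at -6.63 and Col6a1 at -1.72, and in CD embryos at -1.61 and -0.036.

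Visceral endoderm genes were mostly lower by less than 1 log2 unit. Of 46 tested, 10 fell (21.7%, against 5.16% of all genes) and 1 rose, with a median of -0.18. Cubn, the receptor with which this epithelium takes up vitamin B12 and apolipoprotein A-I, was at 10603, 9340.4, 10123 and 9288 CPM in the controls and at 5849 and 7286 in HO (-0.58, SE 0.11, adjusted p = 0.00619). Prothrombin (F2) was at 53.6, 52.7, 54.3 and 57.4 CPM in the controls and 27.1 and 33.01 in HO (-0.86, SE 0.12). The threonine dehydrogenase Tdh fell by 0.83, transthyretin (Ttr) by 0.44, the endocytic adaptor Dab2 by 0.50, the transcription factor Gata4 by 0.46, the sulfate transporter Slc13a4 by 0.66, the connexin Gjb1 by 0.54 and the acyltransferase Soat2 by 0.42. Npnt, a matrix ligand of integrins, rose by 0.83. Alpha-fetoprotein (Afp) was at 4849 and 9587 CPM in HO, on both sides of the controls at 5129 to 6842. The 11 visceral endoderm markers summed to 36810 to 44400 CPM in the controls and to 29510 and 39380 in HO, and all 11 were detected in every library.

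Lipid export was part of this. Of 26 apolipoprotein and lipid export genes 6 fell (23.1%, against 5.16% of all genes) and 0 rose, with a median of -0.31. Apoa4 was at 257, 211, 207 and 157 CPM in the controls and 98.3 and 70.2 in HO (-1.30, SE 0.22), with the groups apart. Apoe fell by 0.54, Apom by 0.48, Apoc1 by 1.03, the sterol transporter Abcg5 by 1.45 and Mttp, the protein that loads lipid onto apolipoprotein B, by 0.64. Apob itself did not pass the test (-0.38, adjusted p = 0.0574). Of 22 solute carriers of the yolk sac 5 fell and 2 rose (22.7% and 9.09%, against 5.16% and 4.5% of all genes). Slc5a1, a sodium-glucose cotransporter, was at 7.93 to 9.87 CPM in the controls and 3.49 and 3.41 in HO (-1.34, SE 0.19). The zinc and manganese transporter Slc39a8 fell by 0.83 and the amino acid transporter Slc7a7 by 0.62. In the null line 13 of 46 visceral endoderm genes, 9 of 26 lipid export genes and 8 of 22 solute carriers were lower. Over all genes 7.59% were lower there. Without CD HO replicate 2 the lower counts in the CD line were 2, 1 and 2, and with the sex term 6, 3 and 4.

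Primitive red cell genes varied widely among the controls, and the count of calls depended on which controls were used. The embryonic globin Hbb-bh1 was at 2579.9 and 6998 CPM in WT, 2129 and 5136 in HE and 4323 and 5044 in HO (0.15, SE 0.40), with both HO libraries inside the range of the controls. WT replicate 2 and HE replicate 2 were the high controls for Hbb-bh1, and the 7 erythroid markers summed to 7101 to 26980 CPM in the controls against 11790 and 16500 in HO. Of 39 erythroid genes tested 0 passed the threshold in edgeR (3 at an unadjusted p under 0.05, 1 in DESeq2), and Car2 (0.97, adjusted p = 0.0654) had the smallest p. The median was 0.20. Without WT replicate 2, 7 were higher and 0 lower, with a median of 0.52, and without WT replicate 2 and HE replicate 2 there were 17 and 0, with a median of 0.87. The replicate block gave 3 higher and 0 lower, and testing without a filter on low counts 14 and 5. The null line had 12 of the 39 erythroid genes higher and 1 lower, where 7.21% and 7.59% of all genes were. Among 22 progenitor and leukocyte genes 3 rose and 3 fell (13.6% each, against 4.5% and 5.16% of all genes). The actin bundler Lcp1 was at 446 to 511 CPM in the controls and 294 and 268 in HO (-0.78, SE 0.11). The stem cell factor receptor Kit rose by 0.71 and the Fc receptor chain Fcer1g by 1.70, while platelet factor 4 (Pf4) fell by 2.47 and Tyrobp by 3.75 from 0.36 to 0.585 CPM in the controls. Csf1r, the receptor of macrophages, was called higher (1.10) with HO replicate 1 beside the controls: it was at 8.60 and 26.97 CPM in HO and 8.03 to 8.52 in the controls.

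Several replication genes were higher. Of 36 proliferation genes 7 rose (19.4%, against 4.5% of all genes) and 1 fell, with a median of 0.092. Rrm2, the regulated subunit of ribonucleotide reductase, was at 189, 184, 183 and 172 CPM in the controls and 311 and 288 in HO (0.72, SE 0.074, adjusted p = 0.000100). Cdc6, which loads the replicative helicase, was at 53.5, 65.5, 54.4 and 58.3 CPM in the controls and 92.8 and 97.8 in HO (0.72, SE 0.088). The helicase subunits Mcm6, Mcm5, Mcm2 and Mcm3 and the replication factor Mcm10 rose by 0.25 to 0.43. Pole, the catalytic subunit of DNA polymerase epsilon, fell by 0.63, from 107 to 123 CPM in the controls to 72.8 and 73.7 in HO. With the sex term 2 of the 36 rose, and without HO replicate 2 there were 3. The division markers Mki67 (0.044) and Top2a (0.27) overlapped between groups. In CD embryos 4 of the 36 rose and 13 fell, where 11.9% and 13.9% of all genes did. The difference between the tissues was called for 11 of the 36, and for 8.06% of all genes. Among the 11 were Rrm2 (0.88, adjusted p = 1.96e-06), Cdc6 (0.82) and Pole (0.93), the last of which fell by 1.57 in embryos.

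Targets of p53, the transcription factor of the DNA damage response, were shifted upward with few calls. Of 39 tested 4 rose (10.3%, against 4.5% of all genes) and 1 fell, and the median was 0.38. The p53 ubiquitin ligase Mdm2 was at 74.1, 84.8, 71.7 and 98.0 CPM in the controls and 104 and 117 in HO (0.43, SE 0.11, adjusted p = 0.0261). The cell cycle inhibitor Cdkn1a was at 16.4, 15.7, 14.4 and 25.4 CPM in the controls and 24.3 and 31.0 in HO (0.62, SE 0.19, adjusted p = 0.0499), so HE replicate 2 lay between the HO libraries. Rap2b rose by 0.66 and Trp53inp1 by 0.67, while Tigar, a phosphatase of fructose bisphosphates, fell by 0.91. Without WT replicate 2 and HE replicate 2, 15 rose, with a median of 0.50, and without HO replicate 2 there were 0. Null homozygotes had 17 higher and 1 lower, where 7.21% and 7.59% of all genes were. In CD embryos 23 of 38 rose and 3 fell, where 11.9% and 13.9% of all genes did. Cdkn1a differed by 2.42 in CD embryos, and the difference between the tissues was -1.81 (adjusted p = 0.000291).

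The integrated stress response and hypoxia lists had many calls in the embryo and few in the yolk sac. Over all genes 11.9% rose and 13.9% fell in CD embryos, and 4.5% and 5.16% in CD yolk sacs. The test of the difference between the tissues called 8.06% of all genes. Of 43 stress response genes, the targets that ATF4 turns on when translation is curbed, 0 rose and 2 fell in CD yolk sacs, Sars by 0.45 and Shmt2 by 0.50. In CD embryos 25 of 42 rose and 2 fell, and 14 passed the test of the difference between the tissues. Trib3, a pseudokinase induced by ATF4, was at 6.08 and 34.8 CPM in WT, 6.49 and 25.8 in HE and 7.44 and 6.70 in HO (-1.37, adjusted p = 0.167), with WT replicate 2 and HE replicate 2 far above the other 4 libraries. Without these 2 controls 6 stress response genes rose and 0 fell, so the direction of this list rests on them. Of 40 hypoxia and glycolysis genes 2 rose and 3 fell in the yolk sac against 32 and 1 in the embryo, and 11 differed between the tissues. Without the same 2 controls 8 rose and 4 fell in the yolk sac. The glucose transporter Slc2a1 was at 964, 875, 938 and 935 CPM in the controls and 1200.4 and 1280.5 in HO (0.42, SE 0.080). The glycolytic regulator Pfkfb3 fell by 1.01 in the yolk sac and rose by 0.65 in the embryo (difference -1.67, adjusted p = 0.000752).

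**Figure D5:**
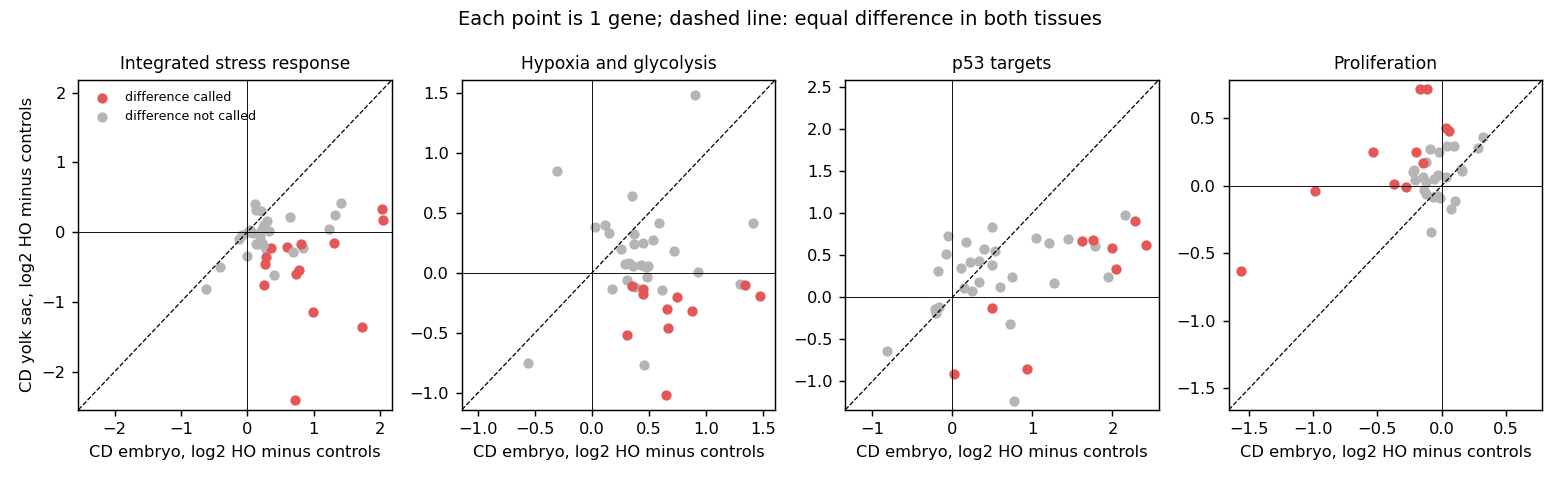
Each point is a gene of 1 of 4 lists, with the log2 difference between HO and controls in CD embryos on the horizontal axis and in CD yolk sacs on the vertical axis. Red points passed the test of the difference between the tissues, 14 in the stress response list, 11 in the hypoxia list, 9 in the p53 list and 11 in the proliferation list. That test called 8.06% of all genes.

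Genes tied to chromatin repression gave small counts, to be set beside the 4.5% of all genes that rose and the 5.16% that fell. Of 31 genes that write, erase or read lysine 36 methylation, the mismatch repair gene Msh6 rose by 0.45 (96.8 to 106 CPM in the controls, 128 and 145 in HO) and the methylcytosine dioxygenase Tet1 fell by 0.51 (65.1 to 72.7 CPM against 51.3 and 46.5). Of 18 germline genes 3 rose: Ddx4, an RNA helicase of germ cells, by 1.34, the Tudor protein Tdrd1 by 1.49 and the meiotic cohesin Smc1b by 1.65. Ddx4 was at 5.04 to 5.63 CPM in 3 controls, 11.6 in HE replicate 2 and 17.9 and 16.6 in HO. Without HO replicate 2, 0 of the 18 were called higher. Of 131 KRAB and other zinc finger genes 12 fell (9.16%) and 3 rose, and without HO replicate 2, 4 fell and 1 rose. Zfp850 was at 13.9, 18.9, 14.1 and 16.2 CPM in the controls and 5.11 and 3.89 in HO (-1.80, SE 0.20), and Zik1 fell by 1.34. Zfp981 rose from 0.0974 to 0.154 CPM in the controls to 1.12 and 1.38 in HO (3.16, SE 0.55). Of 52 imprinted genes 4 rose (7.69%) and 5 fell (9.62%). The cell cycle inhibitor Cdkn1c rose by 1.20, the transporter Slc22a3 by 2.10 and the adaptor Grb10 by 0.65. Asb4, part of a ubiquitin ligase, fell by 1.39.

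Of 30 immediate early and feedback genes 4 fell (13.3%) and 1 rose, with a median of -0.31. Over all genes 5.16% fell and 4.5% rose, the shares beside which each list of this paragraph stands. Among them were 3 feedback genes of receptor tyrosine kinase signalling, Spry4, lower by 1.19, Spred2 by 0.86 and Dusp5 by 1.16, while the matrix protein gene Ccn1 rose by 0.96. With the sex term 0 of the 30 fell and 2 rose, and the median turned to 0.21. Without HO replicate 2, 0 fell and 1 rose. Dusp5 was at 8.72 to 13.4 CPM in the controls and 5.67 and 3.89 in HO. In the CD embryo Dusp5 rose by 0.88 (difference -2.04, adjusted p = 3.11e-05). Interferon-stimulated genes numbered 2 higher of 26, Parp14 by 1.30 and Ifit2 by 0.80. Class I histocompatibility and processing genes numbered 2 higher of 19, H2-Q7 by 2.21 and H2-Q4 by 0.90, and these share near-identical sequence with other H2 genes. Of 26 cholesterol synthesis genes Sc5d alone was called, higher by 0.33, and of 15 mitochondrially encoded genes 0 were called in edgeR or DESeq2 and 0 had an unadjusted p under 0.05, the smallest p being that of mt-Nd2 (-0.19, adjusted p = 0.283). Of 60 ribosomal protein genes 3 rose and 2 fell. Rpl34 was at 30.6, 94.7, 31.5 and 71.7 CPM in the controls and 157 and 119.9 in HO (1.28, SE 0.32), and a processed copy of it, Rpl34-ps1, fell by 3.02, so the counts of both are uncertain.

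Markers of tissues that could adhere to a yolk sac were read in each library. Trophoblast markers were high in HO replicate 1 alone. The placental hormone genes Prl3d1 and Prl2c2 were at 45.5 and 22.5 CPM there, at 0.0598 and 0.239 in HO replicate 2, and at most 4.47 and 9.30 in the controls. Ceacam9 was called higher on HO replicate 1 alone (5.02 CPM, against 0 in HO replicate 2). The summed level of 4 trophoblast markers was 68.4 and 0.299 CPM in HO and 0.405 to 13.8 in the controls, and their part in other results was not tested. Decidual markers summed to 1.16 and 0.359 CPM in HO and to 0 to 0.199 in the controls, with Dcpp1 at 0 in all 6 libraries. The 6 markers of the embryo proper summed to 1.30 and 1.97 CPM in HO and to 0.450 to 1.02 in the controls. Both sums were small, and both HO libraries were above all 4 controls. Of 12 genes of the longer decidual list 2 rose and 2 fell (16.7% each, against 4.5% and 5.16% of all genes). Among those lower was the protease Adamts5 (6.82 to 12.5 CPM in the controls, 1.58 and 2.69 in HO, -2.25). Among those higher was Prl8a2 (at most 0.0997 CPM in the controls, 1.12 and 0.179 in HO, 4.45). Parietal endoderm markers summed to 609 to 745.2 CPM in the controls and 719 and 776 in HO, with 2 of 17 genes higher, Lama1 and the parathyroid hormone receptor Pth1r. Of 13 amnion, allantois and umbilical genes 4 rose (30.8%, against 4.5% of all genes), among them Hoxd13 (0.883 and 0.897 CPM in HO, at most 0.135 in the controls), Krt18 and Krt8. Of the 13, 1 rose with the sex term, 1 without WT replicate 2 and HE replicate 2 and 0 without HO replicate 2. Of 9 neural genes of the embryo tested, 1 fell (11.1%, against 5.16% of all genes) and 0 rose, with a median of 0.78. The gene that fell was the neuronal gene Stmn2, from 0.257 to 1.62 CPM in the controls to 0 and 0.12 in HO. No genes of the somite and heart list (0 of 9) or of the adult blood list (0 of 12) were called in edgeR, the smallest p being those of Tbx6 (1.63, adjusted p = 0.113) and Hbb-bt (-1.31, adjusted p = 0.0969). At an unadjusted p under 0.05 there were 4 and 1, and in DESeq2 0 and 1. Of 6 genes that escape X inactivation 1 was lower (16.7%, against 5.16% of all genes), Pbdc1 by 0.55. Both HO libraries were male by transcripts, so sex and genotype cannot be told apart for it.

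Within 10 Mb of Setd2, 11 of 244 genes tested were higher (4.51%) and 17 lower (6.97%), beside 4.5% and 5.13% elsewhere. Genes named in this report that lie there were Cacna2d2, Rab6b and Pth1r, called higher, and Rpl29 and Glb1, called lower. Whether sequence carried along with the allele had a part in these was not tested.

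The catalytic dead and the null homozygotes were compared in a single fit of the 12 yolk sac libraries. The lines have separate controls. In null yolk sacs 1280 genes rose (7.21%) and 1347 fell (7.59%). Of the 799 genes higher in CD, 503 were higher in null as well (63.0% of the CD genes and 39.3% of the null genes), 656 were lower in both (71.6% and 48.7%) and 3 were called in opposite directions. In the test of the difference itself, 767 of 17755 genes had an unadjusted p under 0.05, fewer than the share of 0.05 that chance alone gives. After adjustment it called 5 genes (0.0282%), all lower in CD than in null. Apart from Rpl29 and the processed pseudogenes Gm10709 and Rpl34-ps1, which fell in CD and share sequence with other copies, these were Hs3st1 and Epas1. For Rpl34-ps1 it was the CD controls that stood apart, at 52.0 to 86.7 CPM. It was at 9.30 and 8.49 CPM in CD HO and at 6.84 to 9.66 in the null libraries, homozygous or not. Hs3st1, a heparan sulfate sulfotransferase, was at 1.36 to 2.49 CPM in the CD controls and 0.883 and 0.359 in CD HO (-1.67), and differed by 2.44 in null (difference -4.11, SE 0.52, adjusted p = 0.00614). Epas1, the hypoxia-inducible factor HIF-2 alpha, was at 62.5 to 77.4 CPM in the CD controls and 55.0 and 46.5 in CD HO (-0.40), and differed by 0.71 in null (difference -1.12, SE 0.17, adjusted p = 0.0298).

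Against the CD embryo, where 2280 genes rose (11.9% of 19215) and 2663 fell (13.9%), calls were set side by side with those of the yolk sac. Among the 16456 genes tested in both tissues 207 were higher in both (27.2% of the yolk sac genes and 10.2% of the embryo genes), 288 lower in both (33.2% and 11.8%) and 127 called in opposite directions. The test of the difference over 20543 genes called 1656 (8.06%), 883 with the yolk sac difference above that of the embryo (4.3%) and 773 below it (3.76%). HO and controls differed in sex in opposite directions in yolk sac and embryo, so sex and genotype cannot be told apart in this test. The genes of smallest p above were zinc finger genes that fell further in the embryo: Zfp850 (-1.80 in yolk sac, -4.62 in embryo), Zfp110 (-0.50 and -1.91), Zfp948 (-0.28 and -2.45) and Zfp873 (-0.43 and -3.12), of which the yolk sac values of the last 2 were not called. Those below were Vegfc, Misp (-3.97 and -0.055), the glycolytic enzyme gene Pfkp (-0.19 and 1.47) and the X-linked Zfp36l3 (-1.40 and 4.24).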

How the data were processed

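Messenger RNA was taken from whole yolk sacs and embryos with TRIzol and made into KAPA mRNA HyperPrep libraries, per the labels' protocols. The submitters' processing notes list fastp 0.22.0, HISAT2 2.2.1, featureCounts 2.0.1, DESeq2 1.32.0 and the build mm10, without roles or order. Overlapping, antisense and near-identical genes are uncertain, because annotation release, strand setting and treatment of reads matching several places were not given in the sources used. The authors deposited raw counts per gene with FPKM values beside them for 55421 genes. No deposited FPKM value departed from count over length and total by more than 0.001 of itself (0 values), and FPKM values were not tested. GENCODE M21 (mm10) gave positions for 55240 identifiers, and 27 date-like symbols were renamed.

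The deposited counts were fitted with edgeR 4.0.16 in R 4.3.3, using TMM scaling, filterByExpr at its defaults (minimum count 10, total 15) and the quasi-likelihood F-test on all 12 yolk sac libraries in 4 groups (8 residual degrees of freedom, common coefficient of variation 0.16), with Benjamini-Hochberg adjustment at 0.05 over all genes tested. HO was set against pooled WT and HE. The difference from the null line came from the same fit, and that from the embryo from a fit of all 24 libraries. On data simulated for the 17158 genes of that step, this comparison recovered 63% of 2-fold and 92% of 4-fold changes. Alternatives used other scaling, no filter, DESeq2 1.42.0, fewer libraries or other groups, the replicate number as a block, a sex term and each library left out. Leaving out WT replicate 2 and HE replicate 2 together was chosen after seeing the data.

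The comparison and the gene lists were chosen with earlier results of these data known. Lists (32, with 934 of 1065 members tested) are described by counts and medians, with no test. Named genes were the 12 of smallest p each way at 1 log2 unit and 1 CPM or more with HO apart from all 4 controls, passing over predicted genes, pseudogenes and sex-linked genes (41 of 290 higher and 25 of 238 lower), up to 4 called members per list (or, where none was called, the 2 of smallest p) and up to 4 each way per difference between lines or tissues. Some of these genes are not reported here. Other list members named were chosen after their values were seen. Replicates of each yolk sac group differed by more than sampling noise (chi-square per degree of freedom 7.40 to 28.7). Intervals and floors cover counting error only.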

Additional observations from a re-analysis of the deposited data

Results flagged for a closer look

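Among 104 named genes whose 4 pooled controls were checked for a library standing apart from the other 3 (Dixon's ratio above 0.829), 11 had one, and chance gives about 1 in 20 such groups. In WT replicate 1, Cyba was at 67.0 CPM (next control 75.2), Pth1r at 77.7 (next 53.8), and Ceacam9 and Prl8a2 each at 0.0997 with the other controls at 0. In WT replicate 2, whose label is in doubt, Psd3 was at 17.5 CPM (next 13.8), Mcm6 at 277 (next 252), Slc39a8 at 824 (next 660.1) and Ccn1 at 11.7 (next 17.3). In HE replicate 1, Vegfc was at 7.93 CPM (next 6.27). In HE replicate 2, which holds transcripts of both sexes, Col1a1 was at 782 CPM (next 1056) and Ddx4 at 11.6 (next 5.63).

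The difference between the catalytic dead and null lines was -3.10 log2 units for Rpl29, -4.11 for Hs3st1, -1.12 for Epas1, -6.74 for Gm10709 and -3.15 for Rpl34-ps1, all past the test of the difference. The difference between CD yolk sac and CD embryo was 2.81 for Zfp850, 1.40 for Zfp110, 2.16 for Zfp948, 2.67 for Zfp873, -2.48 for Vegfc, -5.65 for Zfp36l3, -3.93 for Misp and -1.68 for Pfkp, again past that test.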

How the results depend on the processing

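Against 799 higher and 916 lower genes in CD homozygous yolk sacs, testing without a filter on low counts gave 1278 higher, using the 6 CD libraries alone 271 and 369, WT alone as the control 225 and 335, HE alone 264 and 422, and the sex term 199 and 318. Leaving out each CD library gave 106 to 927 higher and 222 to 1194 lower, both ends from the HO libraries. At 1 log2 unit or more (338 and 265), no filter gave 526 higher, the 6 CD libraries 158 and 166, WT alone 139 and 145, HE alone 138 higher, the sex term 116 and 148, and leaving out libraries 71 to 414 and 106 to 350. For the difference from the null line (0 higher, 5 lower), no filter gave 92 and 109, DESeq2 4 and 14, the sex term 3 lower and leaving out libraries 0 to 8 and 3 to 33, the 3 lower without null HO replicate 1 and without CD HO replicate 2. For the difference from the embryo (883 and 773), the sex term gave 449 and 385, and leaving out libraries 322 to 1151 and 312 to 1254, with 404 and 337 without embryo HO replicate 1. Fewer samples bear on the smaller counts; otherwise the cause was not tested. Over all genes, the differences between replicates 1 and 2 of the CD groups correlated with r = 0.069, 0.098 and -0.055. Whether same-numbered libraries shared a litter or handling is not in the labels, and these r values cannot settle it. On the erythroid list replicate 2 had the higher median in each CD group (-0.45 and 0.91 in WT, -0.78 and 0.27 in HE, 0.03 and 0.53 in HO). With the replicate block 1006 genes were higher and 1108 lower (355 and 275 at 1 log2 unit), and 0 and 5 differed from the null line. Of 103 named genes called in CD yolk sacs, 40 stayed called in the same direction under all 16 alternatives; the sex term left 55 named results uncalled and leaving out HO replicate 2 58. Ceacam9 (6.38) alone changed sign, with values of -2.30 (without HO replicate 1) to 8.69 when a library was left out.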

Other observations

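Genes of lysosomes stood among the lower genes. Because Ifi30 and Dpp7 were already known to be low, this list was drawn up after values were seen and carries no test. Of 68 lysosomal genes tested, 12 were lower (17.6%, against 5.16% of all genes), Ifi30 and Dpp7 among them, and 2 were higher (against 4.5% of all genes) in CD homozygous yolk sacs, with a median of -0.21. The peptidase Tpp1 fell by 0.83, the phospholipase B-like Plbd1 by 1.37, the beta-galactosidase Glb1 by 0.68, the hexosaminidase subunit Hexa by 0.56, the sialidase Neu1 by 0.55, the cystine exporter Ctns by 0.52, Gusb by 0.47, Ctsa by 0.47 and cathepsin C (Ctsc) by 0.37. The acid lipase Lipa rose by 0.55 and prosaposin (Psap) by 0.29. In null yolk sacs 16 of the 68 were lower and 5 higher, where 7.59% and 7.21% of all genes were. In CD embryos 8 of 67 were lower and 15 higher, where 13.9% and 11.9% of all genes were.

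Promoter windows from RefSeq were matched for 11912 of the tested genes. The median number of CpG sites was 21 over 615 higher genes, 17 over 681 lower genes and 20 over all matched genes.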
